A study of Arabidopsis thaliana with 28 samples.

Results

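Hypocotyls, the embryonic stems, of dark-grown Arabidopsis thaliana seedlings were compared after 3 h and after 1 h of light. The comparison rests on 4 of the 28 libraries of the series, 2 for hypocotyls at 1 h and 2 for hypocotyls at 3 h, chosen by tissue and time alone. All plants were wild type, accession Columbia, genotype Col-0. Seeds were kept cold and dark for 7 days, received 1 h of white light, and grew in darkness for 3 days before they were moved to simulated white light, an LED mixture of red and blue with little far-red. Dark libraries and libraries after 15 min, 30 min, 6 h and 12 h of light from the same tissue, and cotyledons with the shoot apical meristem at the same times, were used to place the changes, and all 28 libraries entered the filter on low genes and the shared estimate of the spread. Each group holds 2 samples that the labels call biological replicates, named A and B. The labels do not state how many seedlings went into a library.

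When a seedling grows in the dark, its hypocotyl elongates fast, its cotyledons stay closed and its plastids stay without chlorophyll. Light acts through phytochromes and cryptochromes, which remove the PIF transcription factors and free HY5 and B-box proteins from COP1. In the hypocotyl this process is known for the end of fast elongation, which auxin, gibberellin and brassinosteroids promote through wall-loosening proteins, and in the cotyledons for greening.

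Expression was deposited as FPKM, fragments per kilobase of transcript scaled by sequencing depth, and changes are given as differences in log2(FPKM + 1), with limma's standard error (SE) and p-values adjusted over all 18678 genes tested. A gene is called higher or lower where the adjusted p is under 0.05 and the log2 change is at least 1 in size. Between 1 h and 3 h, 1351 genes (7.23%) rose and 805 (4.31%) fell, 11.5% together, while the median change of all tested genes was 0.03 with quartiles of -0.25 and 0.33. Pearson's r across genes on the log2 scale was 0.985 between the 1 h libraries, 0.981 between the 3 h libraries and 0.922 to 0.926 between times. Genes are not independent replicates, and each group holds only 2 samples. In bulk tissue, fewer cells of a type and less RNA per cell cannot be told apart.

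The highest list medians were those of the Calvin cycle (2.42), light-harvesting (1.99), photosystem (1.85) and flavonoid (1.15) genes. The lowest were those of the SAUR (-2.34), shade-response (-0.77), dark-induced (-0.70) and clock (-0.57) genes. These lists hold genes of known function and were drawn up with earlier results of these data known, so their counts are descriptions. Each count below stands against the 7.23% of all tested genes that rose and the 4.31% that fell.

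**Figure D1:**
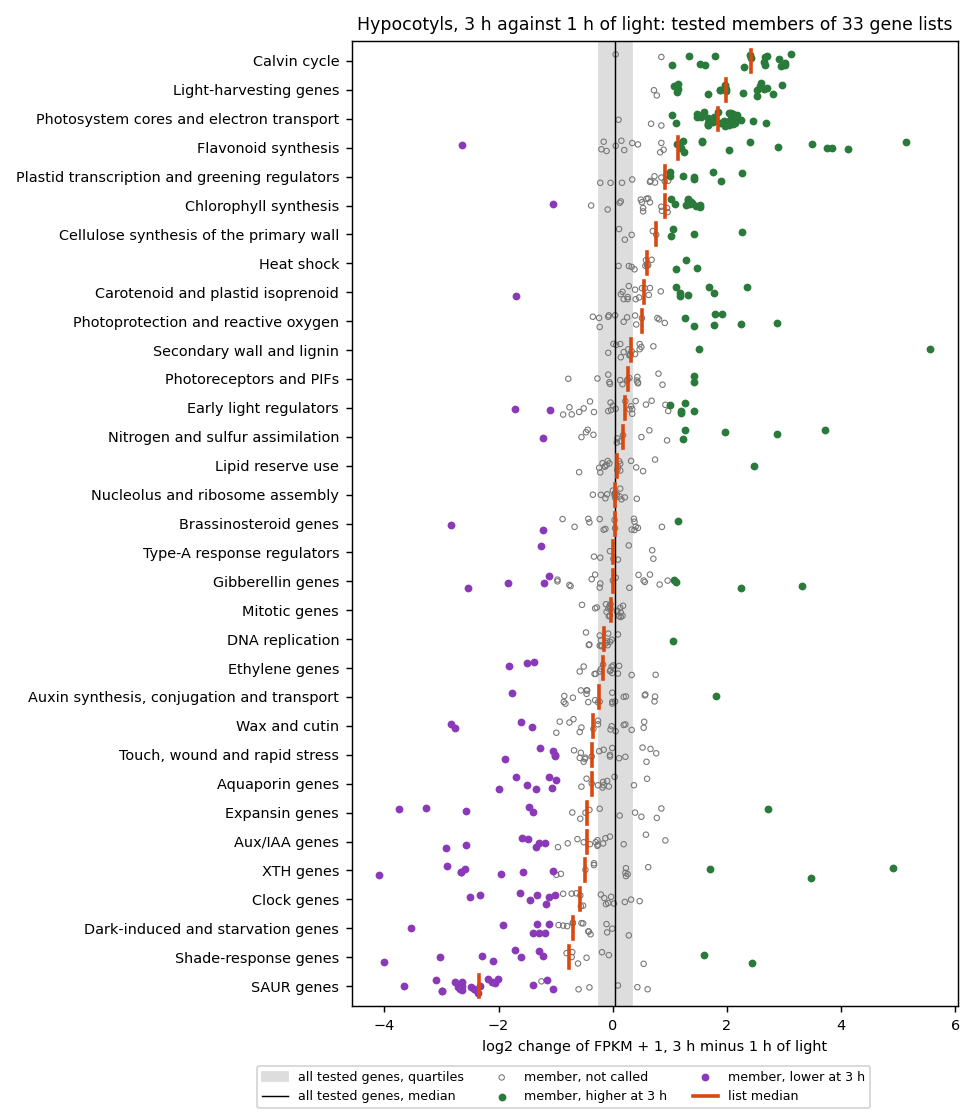
Log2 change of FPKM + 1 in hypocotyls at 3 h minus 1 h for each tested member of 33 gene lists (1 point per gene, jittered in height), sorted by list median (orange bar). Filled points are genes called higher (green) or lower (purple), open points are not called, and the grey band spans the quartiles of all tested genes, -0.25 to 0.33. Members of the Calvin cycle list have a median of 2.42 and SAUR genes one of -2.34.

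The promoters of a few of these genes are shown because they carry, in short stretches, motifs known from light- and auxin-regulated genes. Each is the 250 bases before the annotated transcription start in RefSeq's TAIR10.1 reference, written 5′ to 3′ on the gene's strand, and the 6 genes were chosen after the matches were seen. Motifs searched on both strands were the G-box CACGTG, bound by HY5, PIFs and related factors, the I-box GATAAG, the evening element AAATATCT of clock-regulated genes, the site II element TGGGCC, the telo box AAACCCTA and the auxin response element TGTCTC. Capitals mark every match to any of these. CHS (chalcone synthase, the entry enzyme of flavonoid synthesis, chr5:4488226-4488475, + strand) holds a G-box and an evening element. PSBQA (a subunit of the oxygen-evolving complex, chr4:11334102-11334351, + strand) holds site II elements followed by a pair of G-boxes, and RBCS2B (a Rubisco small subunit, chr5:15382072-15382321, - strand) a G-box among I-boxes. LNK3 (a clock-associated gene of the morning, chr3:3923265-3923514, + strand) holds a pair of G-boxes, IAA6 (an auxin-response repressor, chr1:19673653-19673902, - strand) an auxin response element, and SAUR22 (a growth-promoting auxin-response gene, chr5:5975088-5975337, - strand) an I-box and an auxin response element.
CHS: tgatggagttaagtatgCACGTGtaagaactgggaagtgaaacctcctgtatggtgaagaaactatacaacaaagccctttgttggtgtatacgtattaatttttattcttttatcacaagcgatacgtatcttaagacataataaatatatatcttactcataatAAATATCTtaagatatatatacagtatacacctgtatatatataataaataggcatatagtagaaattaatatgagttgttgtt
PSBQA: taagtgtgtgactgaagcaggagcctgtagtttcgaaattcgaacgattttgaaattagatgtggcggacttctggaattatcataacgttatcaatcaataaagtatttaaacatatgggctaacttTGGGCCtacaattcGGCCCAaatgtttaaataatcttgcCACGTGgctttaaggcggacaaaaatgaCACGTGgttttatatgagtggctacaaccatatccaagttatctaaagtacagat
RBCS2B: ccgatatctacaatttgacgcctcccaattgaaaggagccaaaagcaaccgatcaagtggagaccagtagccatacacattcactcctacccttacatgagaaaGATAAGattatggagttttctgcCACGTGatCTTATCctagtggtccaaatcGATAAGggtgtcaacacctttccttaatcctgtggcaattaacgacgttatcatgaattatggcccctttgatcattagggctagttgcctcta
LNK3: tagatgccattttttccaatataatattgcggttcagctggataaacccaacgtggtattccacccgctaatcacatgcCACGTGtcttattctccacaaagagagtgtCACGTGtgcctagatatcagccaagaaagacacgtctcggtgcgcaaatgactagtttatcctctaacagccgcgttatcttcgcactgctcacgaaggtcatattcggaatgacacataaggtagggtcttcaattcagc
IAA6: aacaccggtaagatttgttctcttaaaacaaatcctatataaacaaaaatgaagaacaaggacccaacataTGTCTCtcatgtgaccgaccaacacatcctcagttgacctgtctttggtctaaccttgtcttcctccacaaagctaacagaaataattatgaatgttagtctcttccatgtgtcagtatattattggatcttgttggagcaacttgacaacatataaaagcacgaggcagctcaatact
SAUR22: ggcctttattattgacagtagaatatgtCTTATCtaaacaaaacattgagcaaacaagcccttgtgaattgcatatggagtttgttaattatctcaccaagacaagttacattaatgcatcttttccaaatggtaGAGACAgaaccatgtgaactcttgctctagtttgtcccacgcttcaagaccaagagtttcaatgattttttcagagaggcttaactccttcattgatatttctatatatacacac

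Of the promoters of 17894 tested nuclear coding genes, taken as 300 bases reaching 50 bases past the start, 8.958% held a G-box, against 10.852% of the 1327 promoters of genes that rose and 10.493% of the 791 of genes that fell. The I-box stood in 15.184% of all tested promoters, in 21.1% of those that rose and in 15.297% of those that fell. Among the lists, 17 of 32 photosystem and electron transport promoters (53.125%) held an I-box and 12 of 32 (37.5%) a G-box. Of the 23 clock genes, 12 (52.174%) held a G-box and 7 (30.435%) an evening element. None of 28 SAUR promoters held a G-box in this window, while 8 (28.571%) held an I-box, the same share as in the 21 light-harvesting promoters. The I-box share was 11.538% in the flavonoid promoters. The auxin response element stood in 13.597% of tested promoters, in 13.037% of those that rose, in 15.929% of those that fell and in 25% of the SAUR promoters. The site II element was in 19.66% of all tested promoters, in 17.86% of those that rose and in 7.08% of those that fell. The telo box was in 5.521% of tested promoters, 3.09% of those that rose and 2.908% of those that fell. A match is a string of letters and not a binding site, and these shares carry no test.

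Of 29 tested transcription factors and other early light regulators, 5 rose and 2 fell, with a median of 0.22, where 7.23% of all tested genes rose and 4.31% fell. HY5, the basic leucine zipper factor that promotes photomorphogenesis, measured 353 and 363 FPKM at 1 h and 249 and 253 FPKM at 3 h, against 21.9 FPKM on average in darkness. Its change of -0.51 (SE 0.11, adjusted p = 8.51e-04) was smaller than the size required for a call. The 3 h libraries both lay below the 1 h libraries, as in 34.5% of all genes tested. HYH, the close relative of HY5, went the other way, from 109 and 102 FPKM to 234 and 251 FPKM, a change of 1.19. The early light-induced proteins, which bind pigments in the plastid and protect it from excess light, rose as well: ELIP1 had 395 and 413 FPKM at 1 h and 1079 and 1100 FPKM at 3 h. COL2, a CONSTANS-like factor, and RUP2, which represses the UV-B photoreceptor pathway, rose by 1.19 and 1.01. FHL, a shuttle that brings phytochrome A into the nucleus, fell from 14.1 and 13 FPKM to 2.74 and 4.18 FPKM, and BBX29, a B-box protein, from 18 and 16.3 FPKM to 7.52 and 7.31 FPKM.

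Among 18 photoreceptor and PIF genes, 2 rose, none fell and the median was 0.27, where 7.23% of all tested genes rose and 4.31% fell. PHOT2, a blue-light receptor of chloroplast movement and phototropism, measured 54.6 and 54.5 FPKM at 1 h and 151 and 147 FPKM at 3 h. PIF7, a phytochrome-interacting factor, went from 2.25 and 2.2 FPKM to 6.51 and 8.96 FPKM. In PHOT2 and PIF7, as in 40.2% of all genes tested, both 3 h libraries lay above both 1 h libraries. However, of all 50-base windows in their exons, 44.5% in PHOT2 and 15.7% in PIF7 are shared with another gene, mostly on the other strand. The sample titles call the libraries stranded, while the labels' protocols name a TruSeq v2 kit. Whether the libraries kept strand, and whether the authors' counting used it, cannot be told from the labels, so such genes are uncertain.

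Of 23 tested clock genes 8 fell and none rose, and the median was -0.57. CCA1, a morning-phased MYB repressor at the core of the clock, measured 106 and 118 FPKM at 1 h and 33.4 and 37.6 FPKM at 3 h, 3.16-fold lower (log2 change -1.63, SE 0.195, adjusted p = 1.11e-06). Its partner LHY went from 104 and 119 FPKM to 47.1 and 50.7 FPKM. LNK3, whose promoter with a pair of G-boxes is printed above, fell from 66.7 and 67.5 FPKM to 12.3 and 12.9 FPKM (log2 change -2.33, SE 0.104, adjusted p = 1.19e-12). The 3 h values of CCA1, LHY and LNK3 lay below the 1 h values, and above their dark means of 4.41, 13.1 and 6.3 FPKM. BOA, an evening-phased factor related to LUX, went from 37.1 and 34.2 FPKM to 5.18 and 5.83 FPKM. Of its 50-base exon windows, 43.7% are shared with another gene. RVE2, LNK4, PRR5 and LUX were the others that fell. PRR7, a daytime repressor, did not pass the test: it had 18 and 17.9 FPKM at 1 h and 22.4 and 22.9 FPKM at 3 h (change 0.32, adjusted p = 0.11).

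For several clock genes the 1 h libraries were a local high point. In 15 of the 23 clock genes the 1 h libraries both lay above the 30 min libraries, against 29.3% of all genes tested. For 10 of the 23 clock genes (43.5%), the 1 h libraries both lay above the 30 min and the 3 h libraries, against 7.42% of all genes tested, a count in which the same 1 h libraries enter on either side. These were CCA1, LHY, LNK2, LNK4, PRR3, PRR9, RVE4, RVE8, ELF3 and ELF4. CCA1 averaged 45 FPKM at 30 min, 112 FPKM at 1 h and 35.5 FPKM at 3 h. LNK3 stood at 71.1 FPKM at 30 min and 67.1 FPKM at 1 h, so its fall began after 1 h. PRR9, another daytime repressor, averaged 5.24, 12.9 and 6.65 FPKM at these times, and its change from 1 h to 3 h was -0.87.

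**Figure D2:**
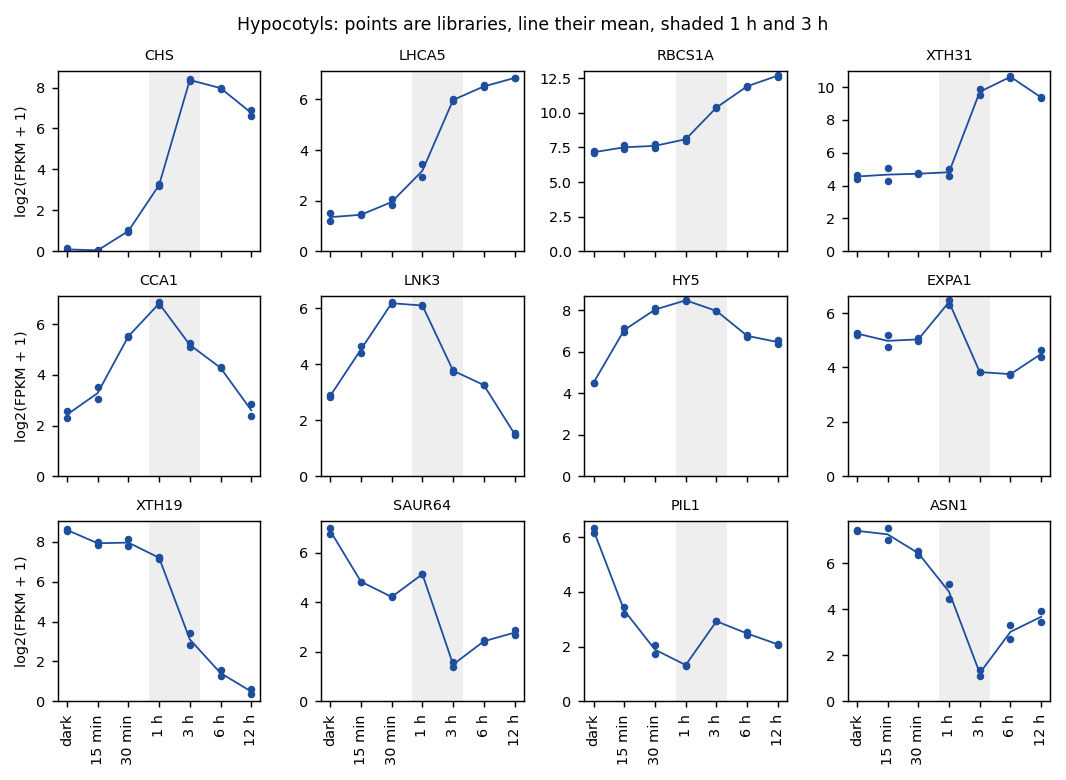
Level of 12 genes in hypocotyls on the log2(FPKM + 1) scale from darkness to 12 h of light; points are single libraries, 2 per time, the line joins their means, and the shaded band marks 1 h and 3 h. CCA1 is highest at 1 h (112 FPKM on average), CHS at 3 h (330 FPKM) and RBCS1A at 12 h (6663 FPKM), while SAUR64 stands at 34.1 FPKM at 1 h and at 1.81 FPKM at 3 h.

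Shade-response genes are induced by PIFs when red light is poor, and several of them act on elongation. Of 18 tested members 8 fell and 2 rose, with a median of -0.77. PAR2, a helix-loop-helix protein that restrains shade growth, measured 135 FPKM in each 1 h library and 6.99 and 7.97 FPKM at 3 h, 18.1-fold lower (log2 change -4.01, SE 0.203, adjusted p = 1.23e-11). Its relative PAR1 went from 9.45 and 10.1 FPKM to 0.346 and 0.292 FPKM. The growth-promoting helix-loop-helix genes PRE1 and PRE5 and the homeodomain-zipper genes HAT1, HAT2 and ATHB4 fell too, HAT1 from 67.4 and 71.1 FPKM to 13 and 13.7 FPKM. ATHB2, the best-known shade marker of that class, was not called: it had 11.2 and 10.9 FPKM at 1 h and 5.5 and 6.23 FPKM at 3 h (change -0.81), after a dark mean of 133 FPKM. In 9 of the 18 members the 1 h libraries both lay above the 30 min libraries, against 29.3% of all genes tested. In 8 (44.4%), ATHB2, HAT1 and PAR2 among them, they also lay above the 3 h libraries, against 7.42% of all genes tested. The same 1 h libraries enter on either side.

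PIL1 and BEE3 took the opposite course. PIL1, a PIF-related factor and rapid shade marker, stood at 75.2 FPKM in darkness on average, at 1.48 and 1.54 FPKM at 1 h and at 6.6 and 6.61 FPKM at 3 h, a rise of 1.60 (SE 0.144, adjusted p = 1.78e-08). BEE3, a brassinosteroid-induced helix-loop-helix gene, went from 2.53 and 2.28 FPKM to 18.3 and 16.8 FPKM. The 3 h libraries of these genes lay above the 1 h libraries and below the dark mean, which was 34.7 FPKM for BEE3.

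SAUR genes, short auxin-induced genes whose products keep the plasma membrane proton pump active and promote cell expansion, had the lowest median of the lists examined. Of 28 tested members 22 fell and none rose. SAUR64 measured 34.4 and 33.8 FPKM at 1 h and 2.02 and 1.6 FPKM at 3 h, 18.8-fold lower (log2 change -3.65, SE 0.211, adjusted p = 3.82e-11). SAUR50 went from 114 and 115 FPKM to 14.2 and 18.3 FPKM, and SAUR22, printed above, from 31.6 and 33.3 FPKM to 4.61 and 5.83 FPKM. The neighbouring subfamily members SAUR19 to SAUR24 that were tested fell by between 2.43 and 2.99 on the log2 scale. The 6 tested members not called were SAUR9, SAUR10, SAUR12, SAUR51, SAUR72 and SAUR78, with SAUR10 at -1.25 (adjusted p = 0.0531) nearest to a call. SAUR61, the listed member that was not tested for its low level, had 1.16 and 1.09 FPKM at 1 h and 0.0751 and 0 FPKM at 3 h.

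The SAUR genes did not fall steadily from darkness. In 25 of the 28 tested members the 1 h libraries both lay above the 30 min libraries, against 29.3% of all genes tested. In 23 (82.1%) they also lay above the 3 h libraries, against 7.42% of all genes tested. The same 1 h libraries enter on either side, and this share rests in part on the fall to 3 h already described. SAUR22 averaged 213 FPKM in darkness, 10.7 FPKM at 30 min, 32.5 FPKM at 1 h and 5.22 FPKM at 3 h. SAUR19 followed the same order, with 160, 12.4, 28.6 and 3.76 FPKM. SAUR50 averaged 282, 84.4, 115 and 16.3 FPKM. These 3 genes thus stood below their dark level at 30 min, were higher again at 1 h and were lowest of these times at 3 h.

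Aux/IAA genes, which encode the repressors that auxin removes, had 7 members lower and none higher among 22 tested, with a median of -0.45. IAA6, printed above, measured 10 and 12.2 FPKM at 1 h and 0.349 and 0.883 FPKM at 3 h (log2 change -2.92, SE 0.159, adjusted p = 1.69e-11). IAA19, a repressor tied to hypocotyl bending and elongation, went from 57.4 and 67.3 FPKM to 21.6 and 21.7 FPKM after a dark mean of 575 FPKM. IAA1, IAA2, IAA3, IAA5 and IAA16 were the others that fell, IAA2 from 433 and 406 FPKM to 127 and 150 FPKM.

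Genes of auxin supply moved less. Of 24 tested genes of auxin synthesis, conjugation and transport, 1 rose, 1 fell and the median was -0.24. These counts lie near the shares over all tested genes, 7.23% higher and 4.31% lower. TAA1, which makes the auxin precursor indole-3-pyruvate, fell from 15.3 and 16.2 FPKM to 3.91 and 3.89 FPKM. GH3.6, which joins auxin to amino acids, rose from 18.1 and 18.6 FPKM to 69.1 and 64.8 FPKM. YUC8, which takes the next step after TAA1, had 12.7 and 10.9 FPKM at 1 h and 5.49 and 6.73 FPKM at 3 h and was not called (change -0.85).

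Gibberellin genes were divided, with 4 higher and 4 lower among 25 tested and a median of 0.00. GA2OX7, which inactivates gibberellin precursors, measured 1.48 and 1.28 FPKM at 1 h and 26.4 and 19.5 FPKM at 3 h, 16.6-fold higher (log2 change 3.32, SE 0.163, adjusted p = 4.05e-12). GA3OX2, which makes the active hormone, rose as well, from 4.89 and 3.66 FPKM to 22 and 25.9 FPKM. GA2OX8, another inactivating enzyme, rose too, and the receptor gene GID1A rose by 1.07. The DELLA repressor genes GAI and RGL1 fell by 1.12 and 1.21 on the log2 scale, and the gibberellin-regulated genes GASA14 and GASA6 by 2.54 and 1.83. GA20OX1, which acts before GA3OX2, had 2.13 and 2.38 FPKM at 1 h and 1.38 and 1.88 FPKM at 3 h (change -0.31, adjusted p = 0.162) after a dark mean of 34.9 FPKM.

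Among 19 brassinosteroid genes, 1 rose, 2 fell and the median was 0.03, where 7.23% of all tested genes rose and 4.31% fell. BR6OX2, which completes brassinolide synthesis, went from 109 and 107 FPKM to 253 and 231 FPKM, while BRI1, the receptor, fell by 1.22 on the log2 scale to 38.2 and 37.9 FPKM. SOB7, a cytochrome P450 that inactivates brassinosteroids, fell from 62.4 and 56.1 FPKM to 7.38 and 7.56 FPKM. Of its 50-base exon windows, 26.5% are shared with another gene. Of 19 ethylene genes 3 fell, none rose and the median was -0.17. Those 3 make ethylene or its precursor: ACS11 fell by 1.82, ACO4 by 1.51 and ACS5 by 1.38 on the log2 scale. Of 9 tested type-A response regulators, which answer to cytokinin, ARR3 alone was called, from 6.08 and 5.2 FPKM to 1.75 and 1.79 FPKM, and the median was 0.01.

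Some wall-loosening genes fell steeply and a few relatives rose, while most members were not called. Expansins loosen walls without cutting polymers, and of 16 tested members 5 fell and 1 rose, with a median of -0.45. EXPA11 measured 264 and 260 FPKM at 1 h and 22.2 and 15.7 FPKM at 3 h, 13.8-fold lower (log2 change -3.74, SE 0.235, adjusted p = 3.98e-10). EXPA8 went from 189 and 181 FPKM to 17.9 and 18.5 FPKM. EXPA1, whose mean was 37.1 FPKM in darkness and 31.8 FPKM at 30 min, measured 89.5 and 78.7 FPKM at 1 h and 13.2 and 13.3 FPKM at 3 h. Both 1 h values of EXPA1 lay above its means at all other times in hypocotyls. EXPB3 rose from 10.4 and 10.6 FPKM to 82.7 and 66.3 FPKM.

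XTH genes encode enzymes that cut and rejoin xyloglucan, the tether between cellulose fibres. Of 21 tested members 8 fell and 3 rose, with a median of -0.48. XTH19 measured 142 and 150 FPKM at 1 h and 9.64 and 5.98 FPKM at 3 h (log2 change -4.09, SE 0.388, adjusted p = 2.64e-07), and its neighbours in the family XTH17 and XTH18 fell by 2.59 and 2.90 on the log2 scale. XTH31 measured 23.2 and 31.5 FPKM at 1 h and 965 and 730 FPKM at 3 h, 31-fold higher (log2 change 4.91, SE 0.184, adjusted p = 2.17e-13). XTH32, in the same branch, went from 26.3 and 38.5 FPKM to 450 and 298 FPKM, and XTH7 rose by 1.70. XTH31 had been flat until 1 h, with means of 22.5 FPKM in darkness and 25.4 FPKM at 30 min, and stood at 1589 FPKM at 6 h. XTH4, the most abundant of these with 3091 and 3167 FPKM at 1 h, was at 1902 and 1461 FPKM at 3 h and was not called (change -0.91).

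Of 9 tested genes of cellulose synthesis in the primary wall 4 rose, none fell and the median was 0.76, and 2 were called without 1 h library A or without 3 h library A. CESA2, a catalytic subunit, went from 49 and 57.3 FPKM to 269 and 250 FPKM, CESA5 rose by 1.42, and CESA3 (1.02) and COB (1.06) were just past the threshold. Of 18 tested genes of the secondary wall and lignin, 2 rose, none fell and the median was 0.31, where 7.23% of all tested genes rose. FAH1, the ferulate 5-hydroxylase of sinapate and syringyl lignin synthesis, measured 0.945 and 1.09 FPKM at 1 h and 97.5 and 90.4 FPKM at 3 h, 92.3-fold higher (log2 change 5.56, SE 0.131, adjusted p = 8.53e-17). CAD4, an enzyme of the last step to lignin monomers, went from 179 in each library to 529 and 496 FPKM. Markers of xylem and phloem, 12 genes, summed to 265 to 278 FPKM at 1 h and to 285 to 398 FPKM at 3 h, with the higher sum in library A, and SMXL5 was the only 1 of the 12 that was called. Their part in these changes was not tested.

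Aquaporins, the water channels of expanding cells, were among the most abundant transcripts and 7 of 19 tested members fell, none rose and the median was -0.37. PIP2;4 measured 758 and 858 FPKM at 1 h and 208 and 197 FPKM at 3 h (log2 change -1.99, SE 0.127, adjusted p = 1.44e-10). TIP2;1 of the vacuole membrane went from 3113 and 3360 FPKM to 1033 and 974 FPKM, and PIP2;7 from 3177 and 3451 FPKM to 1165 and 1172 FPKM. PIP1;3, PIP1;4, PIP1;5 and TIP4;1 also fell, by between 1.00 and 1.35 on the log2 scale.

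**Figure D3:**
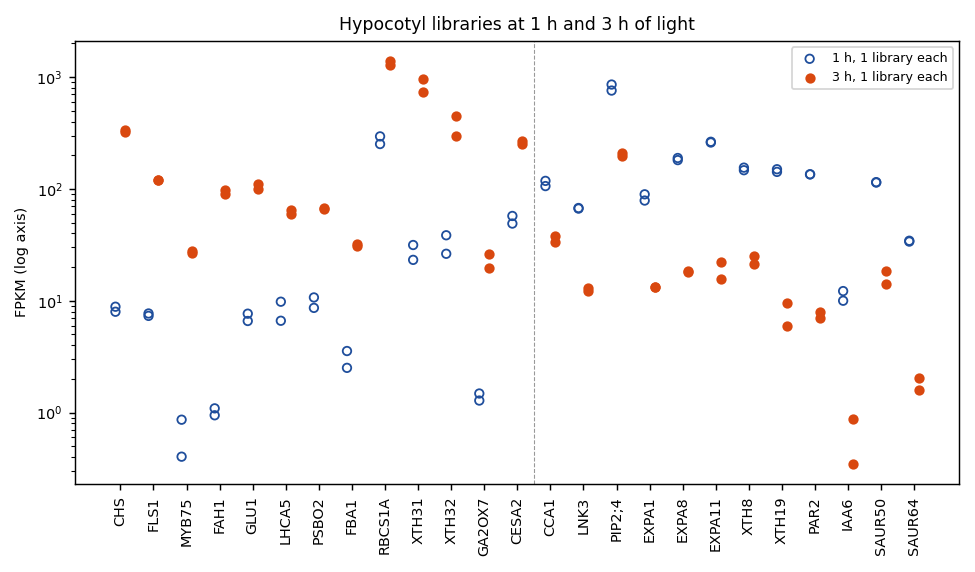
FPKM on a log axis of 25 genes in the 2 hypocotyl libraries at 1 h (open blue) and the 2 at 3 h (filled orange); genes left of the dashed line rose and those right of it fell. Replicates lie close together beside the distance between times, as for EXPA8 with 189 and 181 FPKM at 1 h and 17.9 and 18.5 FPKM at 3 h.

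Greening genes rose together in an organ that is not the main site of photosynthesis. Of 21 light-harvesting genes, whose products bind chlorophyll as antennae, 19 rose, none fell, and in all 21 the 3 h libraries lay above the 1 h libraries, as they did in 40.2% of all genes tested, with 34.5% the other way round. LHCA5 measured 6.62 and 9.8 FPKM at 1 h and 60.1 and 64.4 FPKM at 3 h (log2 change 2.80, SE 0.169, adjusted p = 6.58e-11). LHCB1.1, with means of 0.209 FPKM in darkness and 3.11 FPKM at 30 min, went from 24.9 and 33.8 FPKM to 181 and 193 FPKM. LHCB1.4 and LHCB1.2 rose too, LHCB1.4 by 2.97. However, 13.7% and 10.6% of their 50-base exon windows, and 20.5% of those of LHCB1.1, are shared with near-identical copies. The members not called were LHCB2.3 (0.72) and LHCB4.3 (0.77).

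Genes of photosystem cores and electron transport gave the same picture, with 29 of 32 tested members higher, none lower and a median of 1.85. PSBO2 of the oxygen-evolving complex measured 8.63 and 10.7 FPKM at 1 h and 68.1 and 66 FPKM at 3 h. PSBR went from 139 and 162 FPKM to 831 and 821 FPKM, and PETC, the Rieske protein of the cytochrome b6f complex, from 35.7 and 41.3 FPKM to 188 and 184 FPKM. PSBQA, printed above with its pair of G-boxes, went from 63.1 and 75.1 FPKM to 252 and 247 FPKM. The 3 not called were PSAD-2 (0.85), FD1 (0.67) and the plastocyanin gene PETE1 (0.10), whose relative PETE2 rose by 1.96.

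The Calvin cycle had the highest list median, 2.42, with 17 of 19 tested members higher and none lower. FBA2 and FBA1, plastid aldolases, measured 12.1 and 19.1 FPKM and 2.51 and 3.55 FPKM at 1 h, and 142 and 139 FPKM and 32.2 and 30.9 FPKM at 3 h. RBCS1A, the main Rubisco small subunit gene, went from 252 and 295 FPKM to 1284 and 1397 FPKM (log2 change 2.29, SE 0.154, adjusted p = 2.86e-10), and RBCS2B, printed above, from 23.2 and 32.8 FPKM to 178 and 176 FPKM. Enzymes (PRK 2.95, GAPB 2.91) and the activase RCA (2.66) were among those that rose, whereas TKL1 (0.85) and CP12-3 (0.05) were not called.

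Of 28 chlorophyll synthesis genes 12 rose, 1 fell and the median was 0.91. PORC, a light-dependent protochlorophyllide reductase, went from 6.09 and 7.34 FPKM to 22.1 and 20.3 FPKM, and CHLG, chlorophyll synthase, from 8.5 and 9.12 FPKM to 26.5 and 27.8 FPKM. PORA, the reductase of dark-grown tissue, fell from 1.74 and 1.73 FPKM to 0.529 and 0.149 FPKM, and was not called without 3 h library B (-0.84). PORB was not called, with 45.9 and 60.6 FPKM at 1 h and 41.1 and 39.7 FPKM at 3 h (change -0.38). HEMA1, which commits glutamate to tetrapyrroles, was not called either, with 45.5 and 46.2 FPKM at 1 h and 84.1 and 82.5 FPKM at 3 h (change 0.85).

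Plastid regulators, carotenoid and photoprotection genes followed in part. Of 20 regulators of plastid transcription and greening 8 rose, none fell and the median was 0.92. SIG6, a sigma factor of the plastid RNA polymerase, went from 4.38 and 4.66 FPKM to 24.2 and 27 FPKM, and SCA3, the plastid's phage-type polymerase, rose by 1.89. GLK2, a transcription factor of chloroplast development, measured 123 and 126 FPKM at 1 h and 106 FPKM in each 3 h library and was not called. Of 22 carotenoid and plastid isoprenoid genes 7 rose, 1 fell and the median was 0.54. LUT5, a carotene hydroxylase, rose by 2.35, NPQ1, the violaxanthin de-epoxidase, rose by 1.77, and BETA-OHASE 2, another hydroxylase, fell by 1.70 on the log2 scale. Of 21 tested photoprotection and reactive oxygen genes 7 rose, none fell and the median was 0.51. CAT2, the catalase of photorespiration, went from 122 and 119 FPKM to 468 and 440 FPKM, and the plastid peroxiredoxin gene PRXQ from 12.8 and 14.7 FPKM to 70 and 68.4 FPKM.

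Most of these transcripts were more abundant in cotyledons. At 3 h the hypocotyl level was a median of 11.4% of the cotyledon level over the 21 light-harvesting genes, 16.4% over the 32 photosystem genes and 12.3% over the 19 Calvin cycle genes, after 5.93%, 8.44% and 3.36% at 1 h. Among these and the chlorophyll genes, 3 lay above their cotyledon level at 3 h, CP12-3, FC1 and HY1, none of which was called. PORA, at 556 and 909 FPKM in cotyledons at 1 h, stood at 0.237% of its cotyledon level in hypocotyls at 1 h and at 1.39% at 3 h. Of 7 tested shoot meristem markers, of 11 listed, none was called, AS2, CLV3 and WUS were listed at 0 in all 4 libraries, and the sum was 197 to 211 FPKM at 1 h and 300 to 311 FPKM at 3 h, most of it KNAT1 with 144 and 136 FPKM and then 225 and 232 FPKM. Carry-over as a part of the greening changes was not tested.

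Flavonoid genes, whose pigments screen ultraviolet and visible light, had 14 of 26 tested members higher, 1 lower and a median of 1.15. CHS measured 7.97 and 8.84 FPKM at 1 h and 321 and 338 FPKM at 3 h, 39.2-fold higher (log2 change 5.14, SE 0.518, adjusted p = 1.10e-06). Its later partner FLS1, flavonol synthase, went from 7.69 and 7.32 FPKM to 120 and 121 FPKM. The anthocyanin MYB activators rose from very low levels, MYB75 from 0.403 and 0.863 FPKM to 26.5 and 27.7 FPKM and MYB90 from 0.305 and 0.294 FPKM to 17.1 and 15.8 FPKM. MYBL2, a repressor of anthocyanin genes, fell from 74.4 and 57.8 FPKM to 9.2 and 10.2 FPKM. Enzymes of the general phenylpropanoid path, which also feeds lignin, rose less: PAL1, PAL2, C4H and 4CL1 by 1.12 to 1.24.

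Of 17 tested genes of nitrogen and sulfur assimilation 5 rose, 1 fell and the median was 0.18. GLU1, the ferredoxin-dependent glutamate synthase, measured 6.59 and 7.66 FPKM at 1 h and 111 and 100 FPKM at 3 h (log2 change 3.72, SE 0.216, adjusted p = 9.60e-11). The nitrate reductase genes NIA1 and NIA2 rose by 2.88 and 1.97, nitrite reductase (NIR1) by 1.23 and glutamine synthetase (GLN2) by 1.26, while the sulfate transporter gene SULTR1;2 fell. Of 21 tested dark-induced and starvation genes 7 fell, none rose and the median was -0.70. ASN1, the asparagine synthetase of sugar-starved and dark tissue, measured 32.7 and 20.8 FPKM at 1 h and 1.55 and 1.15 FPKM at 3 h, 19.9-fold lower. Of 19 genes of lipid reserve use, PMDH2, a peroxisomal malate dehydrogenase, alone was called, from 4.26 and 7.07 FPKM to 36.8 and 33.9 FPKM, and the median was 0.08.

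Surface and stress genes moved in both directions. Of 21 tested wax and cutin genes 4 fell, none rose and the median was -0.34. WSD1, a wax ester synthase, went from 134 and 111 FPKM to 15.8 and 16.6 FPKM, and CER4, a fatty acyl reductase, from 7.62 and 7.7 FPKM to 0.465 and 0.122 FPKM. Of 23 tested touch, wound and rapid stress genes 5 fell, none rose and the median was -0.37, among them the cold regulator CBF2 (-1.88) and the calmodulin-related CML12 (-1.27). Without 1 h library A or without 3 h library A, 2 members of the list were called. Of 12 heat shock genes 3 rose, none fell and the median was 0.59, with HSP18.2 at 1.47, HSFB1 at 1.29 and HSP70 at 1.11. HSP70 was no longer called without 1 h library A (0.95) or without 3 h library A (0.88).

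Few cell production genes were called. None of 19 tested mitotic genes and none of 15 tested nucleolus and ribosome assembly genes was called, with medians of -0.04 and 0.04. Of 16 tested DNA replication genes RNR2A, a ribonucleotide reductase subunit, was called at 1.06, and the median was -0.16. RNR2A was no longer called under quantile normalization (0.99), without 1 h library A (0.93) or without 3 h library A (0.98).

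Several of the steepest changes lay outside the lists. AT2G40435, annotated as a SCREAM-like transcription factor, measured 0.0655 and 0 FPKM at 1 h and 41.6 and 33.9 FPKM at 3 h, and averaged 1.26 FPKM at 6 h, so that among the hypocotyl times sampled it stood above 2 FPKM at 3 h alone. AT3G29633, annotated as uncharacterized, was listed at 0 in both 1 h libraries and had 29.6 and 31.2 FPKM at 3 h. BGLU47, a beta-glucosidase, went from 0.154 and 0.0327 FPKM to 27.9 and 19 FPKM, AT1G60590, a pectin lyase-like protein, from 0.483 and 0.366 FPKM to 21.9 and 25.5 FPKM, and AT3G61920 rose by 4.13. DIR1, a lipid-transfer protein of systemic resistance, had the highest change of the nuclear coding genes called, 6.26. However, all of its exon bases lie opposite exons of a gene on the other strand. It is uncertain unless strand was kept in the libraries and used in the counting.

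On the falling side RTFL13 had 16.4 and 26.3 FPKM at 1 h and was listed at 0 in both 3 h libraries. P1R3 went from 63 and 56.9 FPKM to 1.66 and 2.33 FPKM, 30.1-fold lower. AT1G77330, annotated as a 2-oxoglutarate-dependent oxygenase, went from 98.8 and 130 FPKM to 6.36 and 7.33 FPKM. AT1G70270, AT2G19660, AT5G24580 and AT3G17580 fell by between 3.76 and 3.91 on the log2 scale.

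The genes that had moved by 30 min did not as a group reverse direction between 1 h and 3 h. Their change is counted from the 1 h level, which for some genes differed from that at 30 min. Genes were chosen in other libraries, at 30 min against darkness, where 329 (1.76%) were called higher and 344 (1.84%) lower, 3.6% together. Of the 329 that had risen, 82 (24.9%) rose between 1 h and 3 h and 26 (7.9%) fell, with a median of 0.29. Over all tested genes, 7.23% rose and 4.31% fell in that interval. Of the 344 that had fallen, 141 (41.0%) fell between 1 h and 3 h and 17 (4.94%) rose, with a median of -0.72. By change from 1 h to 3 h, the first group holds ELIP1 (1.43) and HYH (1.19), which went up. It also holds CCA1 (-1.63) and LNK3 (-2.33), which went down, and HY5 (-0.51), which was not called. The second holds PIL1 (1.6), which went up, and PAR1 (-3.03) and SAUR64 (-3.65).

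**Figure D4:**
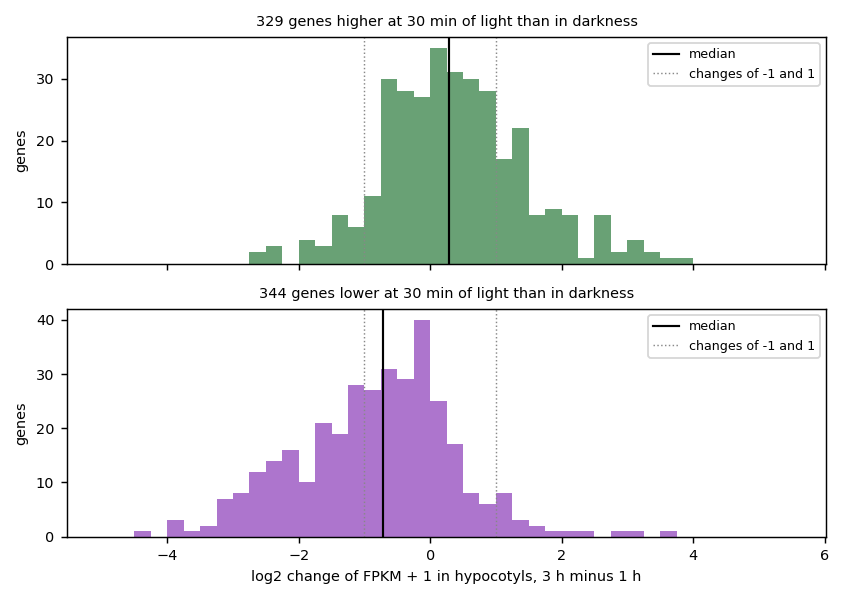
Number of genes by log2 change of FPKM + 1 in hypocotyls at 3 h minus 1 h, for the 329 genes called higher (top) and the 344 called lower (bottom) at 30 min of light than in darkness, which is a separate pair of groups. The solid line is the median (0.29 and -0.72) and the dotted lines mark changes of -1 and 1.

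Later libraries place the 3 h state. Of the 1351 genes that rose between 1 h and 3 h, 43 (3.18%) rose and 75 (5.55%) fell between 6 h and 12 h, with a median of 0.05, where 1.75% of all tested genes were called higher and 1.55% lower, 3.29% together. Of the 805 that fell, 24 rose and 26 fell, with a median of 0.01. Single genes differed: RBCS1A averaged 1341 FPKM at 3 h, 3894 FPKM at 6 h and 6663 FPKM at 12 h, while CHS stood at 330, 250 and 108 FPKM and FAH1 at 93.9, 121 and 56.1 FPKM. XTH19 went on down, from 7.81 FPKM at 3 h to 0.413 FPKM at 12 h, and BOA came back to 37.5 FPKM at 12 h.

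Cotyledons with the shoot meristem were compared over the same interval, in libraries that the hypocotyl comparison does not share. In them 1021 genes (5.47%) rose and 894 (4.79%) fell, 10.3% together. Of the genes that rose in hypocotyls, 267 (19.8%) rose and 20 (1.48%) fell in cotyledons, and of those that fell in hypocotyls, 157 fell and 62 rose. The change itself differed between tissues, by an interaction term in the same limma fit, for 3002 genes (16.1%), 1627 (8.71%) with the higher change in hypocotyls and 1375 (7.36%) with the lower.

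Many members of some growth lists were among these genes. All 21 SAUR genes called for the tissue difference had the lower change in hypocotyls, and the list's median was -0.25 in cotyledons, where 10 members rose and 5 fell. Of the XTH genes 15 had the lower change in hypocotyls and 2 the higher, of the expansins 8 the lower, and of the aquaporins 11 the lower. EXPA1 fell in hypocotyls and rose in cotyledons, from 140 and 148 FPKM to 357 and 399 FPKM (difference -3.96, SE 0.197, adjusted p = 2.86e-11). SAUR6 did the same, with 17.7 and 25.2 FPKM and then 160 and 126 FPKM in cotyledons. XTH31 in cotyledons had 65.8 and 71.1 FPKM at 1 h and 66.7 and 72.3 FPKM at 3 h, a change of 0.02 (difference 4.88, SE 0.261, adjusted p = 7.42e-11), and its hypocotyl level passed from 39.9% to 1219% of the cotyledon level.

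Greening genes differed in the other direction. Of the light-harvesting genes 11, of the photosystem genes 16 and of the Calvin cycle genes 13 had the higher change in hypocotyls and none the lower, with cotyledon medians of 0.95, 0.91 and 0.83. RBCS1A in cotyledons had 9865 and 12490 FPKM at 1 h and 17159 and 14623 FPKM at 3 h. Clock genes had 6 members with the higher change in hypocotyls and none with the lower, and in cotyledons 12 of them fell, with a median of -1.17. CCA1 and LNK3 differed by 0.33 (SE 0.276, adjusted p = 0.374) and -0.09 (SE 0.147, adjusted p = 0.677). For LNK3, with cotyledon values of 64.7 and 64.8 FPKM and then 13 and 12.8 FPKM, the levels in the tissues were alike to within a few FPKM at either time.

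**Figure D5:**
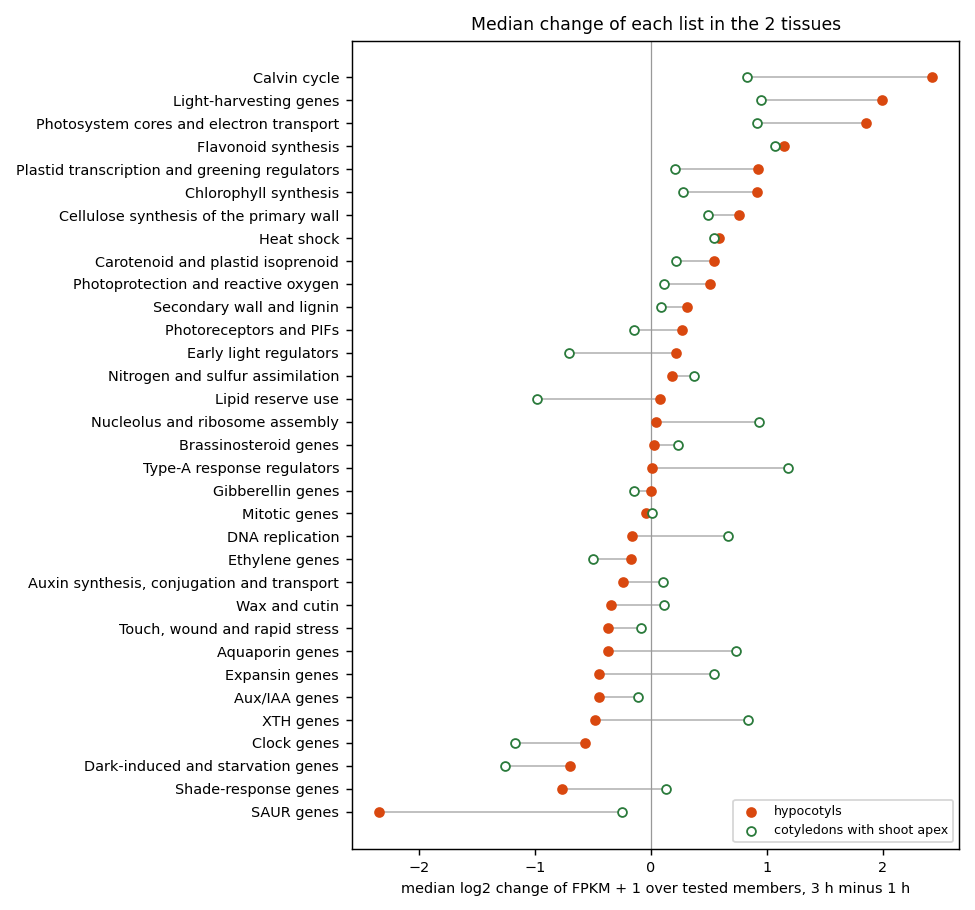
Median log2 change of FPKM + 1 at 3 h minus 1 h over the tested members of each list, in hypocotyls (filled) and in cotyledons with the shoot apex (open). The aquaporin median is -0.37 in hypocotyls and 0.73 in cotyledons, the XTH median -0.48 and 0.84, and the SAUR median -2.34 and -0.25.

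Tissue and library checks were as follows. Root markers, which should be absent, summed to at most 0.434 FPKM over 13 genes, with 8 at 0 in all 4 libraries, and seed storage genes to at most 2.91 FPKM. Endodermis markers summed to 2771 to 2923 FPKM at 1 h and 2985 to 3315 FPKM at 3 h, and of 10 tested ASFT (1.69) and MYB36 (1.07) rose. Shoot epidermis markers summed to 2301 to 2474 FPKM and then 2153 to 2355 FPKM, with LTP1 (2.83) higher. Stomatal lineage markers summed to 27.5 to 28.4 FPKM and then 35.9 to 38.8 FPKM, and KAT1 fell by 2.01 on the log2 scale. Chloroplast-encoded transcripts held 0.177% to 0.301% of summed FPKM in the 4 libraries.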

How the data were processed

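RNA was extracted with an RNeasy Micro kit and made into libraries with a TruSeq v2 kit, per the labels' protocols. The submitters' processing notes name CASAVA 1.8.2, TopHat2 2.0.8, Cuffdiff 2.1.1 and Cuffnorm, and TAIR10. The authors deposited a Cuffnorm table of FPKM values for 33557 genes in 28 libraries, normalized across libraries by the authors. FPKM are not counts, so absolute depth is unknown, and intervals from counts are not given. Relative depth, from the steps between low values of 2989 genes, was 1.38 to 1.72 in the 4 libraries, where all 28 spanned 0.615 to 1.72. The authors' table of comparisons was not used.

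The 18678 genes that averaged 1 FPKM or more across all 28 libraries were compared on log2(FPKM + 1), a scale that understates the changes of low genes, with limma 3.58.1 in R 4.3.3, over all 14 groups, with trend and robust estimation and Benjamini-Hochberg adjustment over all genes tested. A call needs an adjusted p under 0.05 and a log2 change of at least 1. On simulated data of 18678 genes for this comparison, 49 of 50 added changes of 1.5 were called, 50 of 50 of 2 and of 3, 49 of 50 of -1.5, and 3 unchanged genes. The changes were added only to genes well above 1 FPKM at 1 h, with normally distributed noise. Recovery of lower genes was not tested. With 2 samples per group, p-values set a change against the spread between replicates pooled over all 14 groups, not that of the compared samples alone.

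The rule for named genes took the 10 highest and 10 lowest changes among called nuclear coding genes whose groups do not overlap and whose exons reach 500 nt. It added the 4 highest and 4 lowest called tissue differences under the same conditions, except that no call in hypocotyls was required. Up to 3 of the largest called changes in every list were added without the conditions on length, coding and overlap. A further 17 genes were named in any case. Without the length condition, 3 of the 10 highest and 1 of the 10 lowest changes would be other genes. Further list members are named to describe their list and were chosen after their values were seen. The members and lists were chosen with earlier results of these data known. Of 789 listed genes 712 were tested. Names, coordinates and promoters come from RefSeq's TAIR10.1 annotation, which matched 32810 gene IDs. Alternatives were other pseudocounts, filters, scaling, fits, a replicate block and leaving out each library.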

Additional observations from a re-analysis of the deposited data

Results flagged for a closer look

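For 18 of the genes chosen by the naming rule, the change from 1 h to 3 h differed between hypocotyls and cotyledons by at least 3 on the log2 scale in the limma interaction term, and no library of the 8 was at 0. The hypocotyl change was the higher in DIR1 (4.00), CHS (3.16), XTH31 (4.88), BGLU47 (4.39), CCL (4.68), KIN1 (4.44), XTH32 (3.63), PORA (3.77) and PORB (3.13). It was the lower in P1R3 (-3.40), XTH19 (-4.57), AT1G70270 (-4.27), EXPA11 (-3.06), XTH33 (-5.97), GPAT3 (-5.05), SOB7 (-4.01), EXPA8 (-4.20) and EXPA1 (-3.96).

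Opposite directions lay behind several of these. XTH33 measured 8.06 and 12.5 FPKM at 1 h and 0.707 and 0.799 FPKM at 3 h in hypocotyls, and 0.124 and 0.628 FPKM and then 11.1 and 13.8 FPKM in cotyledons. GPAT3, a glycerol-3-phosphate acyltransferase, went from 219 and 192 FPKM to 35.7 and 30.7 FPKM in hypocotyls and from 4.35 and 3.59 FPKM to 24.3 and 28.1 FPKM in cotyledons. CCL rose in hypocotyls, from 3.1 and 3.24 FPKM to 25.5 and 25.4 FPKM, and fell in cotyledons, from 323 and 248 FPKM to 77.4 and 61.9 FPKM. KIN1, a cold- and stress-induced gene, did so from 4.84 and 3.66 FPKM to 41.3 and 36.4 FPKM, and in cotyledons from 15.2 and 10.2 FPKM to 2.85 and 4.84 FPKM. PORA and PORB stood out because they fell far in cotyledons, PORB from 1156 and 1539 FPKM to 131 and 103 FPKM. PORA was near the floor in hypocotyls, at 0.237% of its cotyledon level at 1 h and 1.39% at 3 h. The log2(FPKM + 1) scale understates the fall of so low a gene, so its tissue difference is overstated.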

How the results depend on the processing

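With other settings the count of genes higher at 3 h ran from 1222 (mean of at least 5 FPKM) to 1635 (pseudocount of 0.1 FPKM), and the count of lower genes from 664 to 948 under the same settings, against 1351 and 805. Quantile normalization gave 1235 and 908, 57.6% of the calls higher against 62.7%. Leaving out each library in turn gave 1315 to 1380 higher and 765 to 822 lower genes, and 2972 to 3019 genes with a tissue difference against 3002. The remaining samples are then assumed to vary like the other groups. A replicate block on the letters A and B gave 1350 and 803, and 3005 tissue differences. Deviations of same-lettered 1 h and 3 h libraries correlated at -0.0167, where all pairs of the 14 groups spanned -0.112 to 0.163. Whether the letters share more than a name was not tested.

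Of 1430 values of the 120 named genes under these alternatives, 1414 kept direction and call, 15 were no longer called, 1 was newly called and none reversed. Without 1 h library A, DIN2 (-1.52), CML12 (-1.07), CAM2 (-0.99), COB (0.99), HSP70 (0.95) and RNR2A (0.93) were no longer called. Without 3 h library A this held for COB (0.94), CAM2 (-0.99), HSP70 (0.88) and RNR2A (0.98), while XTH4 (-1.10) was called. Without 3 h library B it held for CML12 (-1.16), SMXL5 (1.00) and PORA (-0.84), which leaves no chlorophyll gene lower. Without 1 h or 3 h library A, 2 primary-wall cellulose genes were called, not 4. Quantile normalization ended the calls of RNR2A and SMXL5. The cause was not tested.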
